A study of Mus musculus with 8 samples.

Results

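The genes that load the replicative helicase onto DNA were described in cells sorted as leukemic stem cells (LSCs) from CML mice with and without imatinib. They are the 6 subunits of the MCM2-7 helicase (Mcm2, Mcm3, Mcm4, Mcm5, Mcm6 and Mcm7), the helicase loaders Cdc6 and Cdt1, the Cdt1 inhibitor geminin (Gmnn) and the helicase cofactor Mcm10. The members were chosen by gene symbol, and all 10 were found among the 15576 genes of the deposited table and among the 11937 that passed the filter on low counts. Because the list was proposed with results of the same comparison known, the differences of its members between the groups are given as a description. Where calls of the fits across all genes are counted for members, they describe the same comparison and support nothing beyond it.

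The CML libraries came from untreated BCR-ABL×SCL-tTA mice on a C57BL/6 background, in which BCR-ABL, under a tetracycline-controlled transactivator that SCL sequences drive in stem cells, is expressed once tetracycline is withdrawn. The CML-TKI libraries came from mice of the same transgenes and strain given 400 mg/kg imatinib, a tyrosine kinase inhibitor, by gavage on alternate days for 30 days, and both groups had BCR-ABL switched on. The study's own account of its LSC RNA-seq gives a lower dose and 4 weeks, so the dose of these mice is not settled, and the labels give neither the age of the animals nor whether a library was 1 mouse or a pool. There were 4 libraries a group, and since nothing says that they came from separate animals, p-values measure only the spread between these libraries.

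Total estimated counts ranged from 4939644 to 8620101 in the CML and from 1041552 to 5104268 in the CML-TKI libraries, of which CML-TKI 3 was the shallowest. The fourth CML column carries the number 5 and is called CML 5. CML 1, 2 and 3 lay closer to each other than any other libraries, with a reduced chi-square of their counts of 3.7 to 4.93 against 56.8 to 60.95 for each with CML 5, so they differed by more than sampling noise but far less than from CML 5. In CML 5, transcripts over 6 kb were lower than in CML 1 to 3 (median log2 difference -0.70) and those under 2 kb higher (0.50). The sample labels give a CD150-negative, CD48-positive gate for all 8 libraries while the study defines LSCs as CD150-positive and CD48-negative. Slamf1, which encodes CD150, had 29.01 to 37.7 CPM (counts scaled to library size, TMM-normalized) in the CML libraries and 0.62 to 6.58 in the CML-TKI libraries, and Cd48 had 3.86 to 6.4 and 39.9 to 178 CPM, so at the RNA level the CML libraries went against the labelled gate, the CML-TKI libraries went against the study's definition of LSCs, and the groups differed in both genes. Of the other gate genes, Kit was at 764 to 1023 CPM in the CML and 194 to 290.4 CPM in the CML-TKI libraries (log2 fold change -1.92, edgeR adjusted p = 8.70e-04). Ly6a (Sca1) and Flt3 overlapped and were not called in edgeR, with Ly6a at 33.2 to 38.5 and 1.56 to 44.3 CPM. Of the 5 gate genes, edgeR and DESeq2 each called 1 higher and 2 lower, and limma-voom 1 higher and 3 lower. Kit, Ly6a and Flt3 were named after their values were seen. The libraries are therefore called by their group names.

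Origins of replication are licensed in late mitosis and G1, when the origin recognition complex (ORC), Cdc6 and Cdt1 place MCM2-7 rings onto DNA. In S phase the kinase CDC7-DBF4 and cyclin-dependent kinases turn loaded MCM2-7 into the active helicase together with CDC45 and GINS, and MCM10 takes part in this activation. Geminin accumulates in S and G2 and holds CDT1 inactive so that DNA is not licensed again, and SKP2- and CUL4-containing ubiquitin ligases remove CDT1. Most of these genes are induced by E2F transcription factors as cells leave quiescence, and MCM proteins are used as markers of cells able to replicate. Hematopoietic stem cells are largely quiescent, and the study asked, among other things, how IM-persistent LSCs differ in this respect from untreated ones. In CML mice with a GFP label that is diluted by cell division, it reported more label in IM-persistent LSCs. It described them as more quiescent than untreated LSCs. That is a measure of past divisions in other mice, not of RNA in these libraries.

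The RefSeq promoter windows of GRCm38.p6, from 250 bases before to 50 bases after a transcript start, matched 8 of the 10 genes with 9 windows (Mcm7 has more than 1). An E2F-type motif, searched on both strands as TTTCCCGC, TTTCGCGC, TTTGCCGC or TTTGGCGC, with overlapping matches counted, was found in 6 of the 9 windows, those of Mcm3, Mcm5, Mcm6, Mcm7, Cdc6 and Cdt1, where 2.26% of all 32851 windows held one. The letters CCAAT, on either strand, stood in 7 of the 9 windows against 37.4% of all windows, and TTTGAA, the core of the cell cycle homology region, in 1 of the 9 against 17.9%. The 250 bases before the start are shown for Mcm2 and Mcm5, whose ratio separated the groups furthest among helicase subunits, and for Cdc6 and Mcm10, the members with the largest fold changes, with E2F-type matches in capitals.
Mcm2 promoter, minus strand of chr6:88898781-88899030: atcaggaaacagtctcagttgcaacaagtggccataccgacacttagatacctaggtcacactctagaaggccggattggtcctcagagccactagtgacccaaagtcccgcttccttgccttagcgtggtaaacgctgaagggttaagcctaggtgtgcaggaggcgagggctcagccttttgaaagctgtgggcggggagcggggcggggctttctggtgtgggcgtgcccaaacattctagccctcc
Mcm5 promoter, plus strand of chr8:75109259-75109508: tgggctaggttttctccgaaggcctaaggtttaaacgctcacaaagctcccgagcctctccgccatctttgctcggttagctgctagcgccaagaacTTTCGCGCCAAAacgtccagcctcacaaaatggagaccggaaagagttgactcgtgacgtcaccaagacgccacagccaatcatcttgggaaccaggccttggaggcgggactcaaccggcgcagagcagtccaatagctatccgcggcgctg
Cdc6 promoter, plus strand of chr11:98907901-98908150: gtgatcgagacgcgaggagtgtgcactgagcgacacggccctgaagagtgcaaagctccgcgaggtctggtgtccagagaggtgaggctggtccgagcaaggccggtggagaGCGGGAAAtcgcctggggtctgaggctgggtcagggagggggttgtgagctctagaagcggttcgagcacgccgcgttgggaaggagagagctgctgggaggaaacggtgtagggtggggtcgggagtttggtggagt
Mcm10 promoter, minus strand of chr2:5012792-5013041: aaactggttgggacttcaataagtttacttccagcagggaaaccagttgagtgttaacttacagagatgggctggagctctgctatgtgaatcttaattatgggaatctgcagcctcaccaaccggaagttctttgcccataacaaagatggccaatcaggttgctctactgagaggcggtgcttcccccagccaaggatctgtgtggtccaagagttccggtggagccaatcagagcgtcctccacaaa
Mcm5 held 2 overlapping matches that started 153 and 149 bases before its RefSeq transcript start, on opposite strands. Cdc6 held 1 on the reverse strand, 138 bases before its RefSeq transcript start. These starts are not those of the GENCODE gene positions given below. The windows of Cdc6 and Mcm7 lie inside the GENCODE spans of these genes, so the Cdc6 match is upstream of the RefSeq start only. Neither Mcm2 nor Mcm10 held these letters in its window, and a match or its absence here is a description of the sequence only.

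The summed level of MCM2-7 did not separate the CML from the CML-TKI libraries. It was 1840 CPM, 1791 CPM, 1731 CPM and 1899 CPM in CML 1, 2, 3 and 5, and 1479 CPM, 2464 CPM, 1562 CPM and 1974 CPM in CML-TKI 1 to 4, so the treated libraries lay on both sides of the untreated ones. As the mean log2 CPM of the 6 genes, it was 8.17 ± 0.045 (SD, n = 4) in the CML and 8.20 ± 0.34 (SD, n = 4) in the CML-TKI libraries. The difference of 0.031 was smaller than the spread within either group, and its sign turned with total counts less the ribosomal gene Rn45s as library sizes in place of TMM (-0.098), without CML-TKI 2 (-0.113) and without CML-TKI 4 (-0.001). None of the 6 subunits passed an adjusted p of 0.05 in either direction in edgeR's quasi-likelihood test over all genes, where 10.2% of all genes tested were called, 6.29% as higher and 3.93% as lower in the CML-TKI libraries. At an unadjusted p under 0.05 it was also 0 in both directions, beside 13.7% of all genes higher and 12.1% lower. DESeq2 called 0, beside 9.75% and 7.94% of all genes. With limma-voom 1 was higher (Mcm5) and 0 lower, beside 10.5% and 11%. In bulk RNA, fewer cells of a type and less RNA per cell cannot be told apart.

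Subunits of the helicase lay on both sides of 0. Mcm2, whose N-terminal tail also binds histones, is on chr6:88883474-88898780 of GRCm38 and had 346, 335, 318 and 436 CPM in CML 1, 2, 3 and 5 and 255, 349, 240.02 and 319.7 CPM in CML-TKI 1 to 4. CML 5 was the highest of all, CML-TKI 2 and 4 lay within the CML range and CML-TKI 1 and 3 below it, and the log2 fold change was -0.30 (standard error 0.21). Mcm6 (chr1:128331590-128359664), part of the catalytic core with Mcm4 and Mcm7, had 461, 470.4, 451 and 378 CPM in the CML and 324, 483, 247 and 464 CPM in the CML-TKI libraries. CML-TKI 2 and 4 matched CML 1 to 3 while CML-TKI 1 and 3 lay below all of them (log2 fold change -0.21, standard error 0.24). The log2 fold change of Mcm6 was -0.043 without CML-TKI 3, the shallowest library, and -0.35 without CML-TKI 2.

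Mcm5 (chr8:75109569-75128439), which with Mcm2 forms the gate through which DNA enters the ring, had 295, 282, 281 and 389 CPM in CML 1, 2, 3 and 5 and 291, 601, 346 and 451 CPM in CML-TKI 1 to 4. 2 of the 4 CML-TKI libraries were above every CML library, and CML-TKI 1 was at the CML level (log2 fold change 0.44, standard error 0.26). The log2 fold change of Mcm5 was 0.21 without CML-TKI 2 and 0.58 without CML-TKI 1. Mcm3 (chr1:20802968-20820312), the subunit through which CDC6 and ORC take up the ring, had 324, 313, 277 and 269 CPM in the CML and 276, 426, 334 and 300.5 CPM in the CML-TKI libraries. Its groups overlapped, with CML-TKI 2 highest (log2 fold change 0.17, standard error 0.20). The log2 fold change of Mcm3 was 0.03 without CML-TKI 2 and 0.25 without CML-TKI 1.

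Mcm4 (chr16:15623897-15637400), a substrate of CDC7-DBF4 in helicase activation, had 189.6, 183, 184 and 131 CPM in the CML libraries and 135, 333, 164 and 213 CPM in the CML-TKI libraries. Its log2 fold change of 0.30 (standard error 0.29) rested on CML-TKI 2, without which it was -0.014. Mcm7 (chr5:138164583-138172422) had 226, 208, 218 and 296 CPM in the CML and 199, 273, 230.2 and 226 CPM in the CML-TKI libraries, with CML 5 and CML-TKI 2 above the other libraries. Its log2 fold change of -0.031 (standard error 0.20) changed sign without CML 5 (0.084) and without CML-TKI 1 (0.033).

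**Figure D1:**
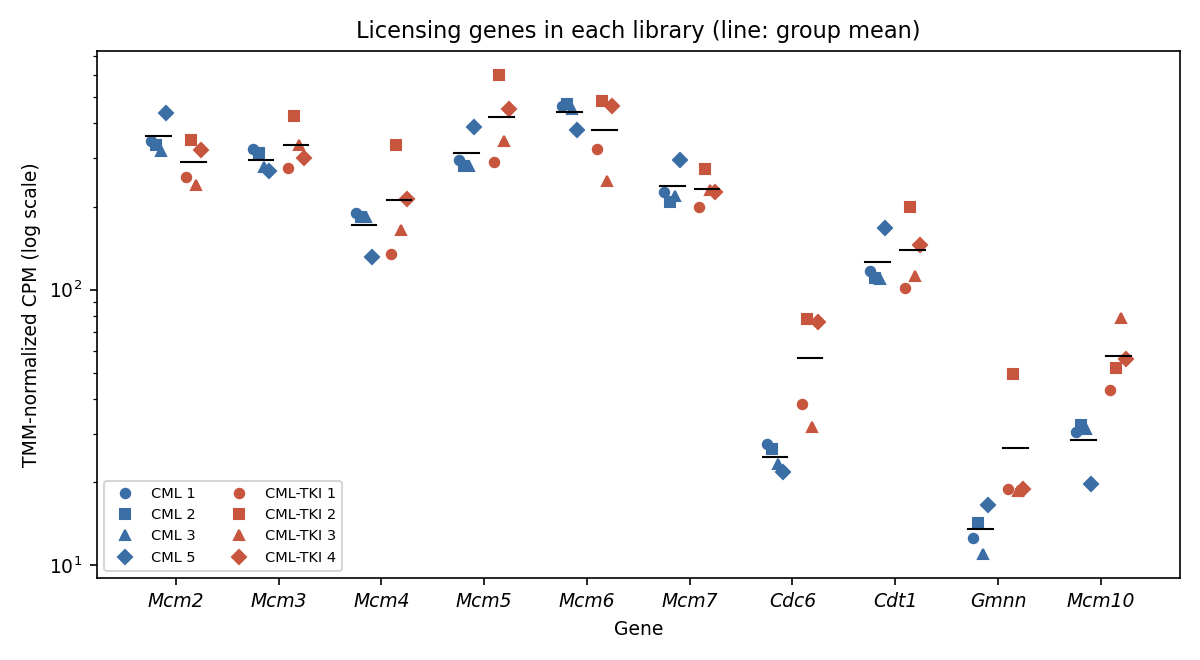
TMM-normalized CPM on a log axis of each of the 10 licensing genes in every library, with CML in blue, CML-TKI in red, a marker shape for each library number and a line at the group mean. The 6 MCM2-7 genes overlap between groups, whereas every CML-TKI library lies above every CML library for Cdc6, Gmnn and Mcm10.

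Outside the ring, 3 of the 10 members, Cdc6, Gmnn and Mcm10, had CML-TKI levels that all exceeded the highest CML level, and 0 had levels that all lay below the lowest, where 10.3% of all genes tested were separately higher and 13.1% separately lower. Cdc6 (chr11:98907801-98923940), the ATPase that recruits MCM2-7 to ORC, had 27.5, 26.4, 23.4 and 21.9 CPM in CML 1, 2, 3 and 5 and 38.4, 78.4, 31.8 and 76.5 CPM in CML-TKI 1 to 4. The CML libraries were close to each other, and the CML-TKI libraries fell into a lower pair (1 and 3) and a higher pair (2 and 4). Group means were 24.8 ± 2.63 and 56.3 ± 24.6 CPM (SD, n = 4 each), a log2 fold change of 1.19 (standard error 0.33). In CML-TKI 3 the gene had 29 counts, whose 95% Poisson interval (counting error only) of 21.3 to 45.6 CPM reaches into the CML range.

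Mcm10 (chr2:4989714-5012791) had 30.4, 32.4, 31.1 and 19.8 CPM in the CML libraries and 43.3, 51.8, 78.9 and 56.2 CPM in the CML-TKI libraries. CML 5 stood below the other CML libraries and CML-TKI 3 was the highest of all, and the means were 28.4 ± 5.82 and 57.5 ± 15.2 CPM (SD, n = 4 each), a log2 fold change of 1.01 (standard error 0.28). It was the 1 of 10 members past the adjusted threshold of edgeR's quasi-likelihood test, in which 0 members were called lower, beside 6.29% of all genes higher and 3.93% lower. At an unadjusted p under 0.05, 3 members were higher and 0 lower, beside 13.7% and 12.1% of all genes. DESeq2 called 2 members higher and 0 lower, beside 9.75% and 7.94% of all genes, and limma-voom 3 and 0, beside 10.5% and 11%. The call of Mcm10 was lost in 13 of 16 alternatives, among them those without CML 1, 2, 3 or 5 and without CML-TKI 2, 3 or 4, in which its log2 fold change was 0.84 to 1.07. Without CML-TKI 1, Cdc6 passed together with Mcm10, and without CML-TKI 3 it passed while Mcm10 did not, with log2 fold changes of Cdc6 of 1.34 and 1.39.

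Geminin (Gmnn, chr13:24751845-24761923) had only 12.5, 14.3, 11.0 and 16.5 CPM in the CML libraries and 18.99, 49.6, 18.6 and 18.99 CPM in the CML-TKI libraries. Of the CML-TKI libraries, 3 lay just above CML 5 and CML-TKI 2 lay far above all others. Means were 13.6 ± 2.36 and 26.6 ± 15.4 CPM (SD, n = 4 each), with a log2 fold change of 0.97 (standard error 0.41) that was 0.47 without CML-TKI 2. CML-TKI 3 had 17 counts (95% Poisson interval 10.9 to 29.8 CPM), so its place above the CML libraries was not resolved at this depth. Cdt1 (chr8:122568015-122573554), the partner that geminin inhibits, had 117, 109.8, 109.6 and 167 CPM in the CML and 102, 199, 112 and 145 CPM in the CML-TKI libraries, with CML 5 and CML-TKI 2 highest in their groups. Its groups overlapped, and its log2 fold change of 0.15 (standard error 0.27) turned to -0.077 without CML-TKI 2.

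Compared per length, with CPM divided by the kilobases of each gene's longest coding transcript, the helicase subunits other than Mcm4 stood highest in the CML libraries. Mcm2, Mcm6, Mcm3, Mcm5 and Mcm7 had 106.5 ± 15.7, 101 ± 9.74, 97.6 ± 8.8, 92.2 ± 15.4 and 80.0 ± 13.5 CPM per kb (SD, n = 4 each), with overlapping ranges. Within a library, Mcm5 was above Mcm7 per kb in all 4 CML libraries, while each of the other neighbours in this order changed places in at least 1. Cdt1 (57.5 ± 12.6) followed, its range reaching that of Mcm7 through CML 5, and then Mcm4 (47.9 ± 7.66), whose range met that of Cdt1. Below them, with no overlap between libraries, came Gmnn with 12.05 ± 2.09 CPM per kb, then Mcm10 (5.84 ± 1.19) and Cdc6 (5.38 ± 0.57), which overlapped. In the CML-TKI libraries the order began with Mcm5 (125 ± 40.3) and Mcm3 (110.2 ± 21.6), followed by Mcm6 (87.1 ± 26) and Mcm2 (86.3 ± 15.4), whose ranges all overlapped. Mcm4 remained the lowest of the 6 subunits on average in both groups, at 58.9 ± 24.3 CPM per kb in the CML-TKI libraries.

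The balance between subunits was then compared as ratios of counts within each library, which no scaling between libraries can move. The ratios were added after the data were seen, and belong to the same comparison. Between Mcm2 and Mcm5 the ratio was 1.17, 1.19, 1.13 and 1.12 in CML 1, 2, 3 and 5, and 0.878, 0.581, 0.693 and 0.71 in CML-TKI 1 to 4. All CML libraries, CML 5 included, held more Mcm2 than Mcm5 counts and all CML-TKI libraries fewer, a mean log2 difference of -0.70 between groups (-0.81 to -0.61 when any 1 library was omitted). The ratio of Mcm5 to Mcm7 was 1.31, 1.36, 1.29 and 1.32 in the CML and 1.46, 2.2, 1.505 and 2.0 in the CML-TKI libraries, again without overlap. In all, 5 of the 15 ratios among the 6 subunits did not overlap between groups, where 24.9% of the ratios of all pairs of genes tested did not. The others were Mcm2 over Mcm3, Mcm2 over Mcm7 and Mcm4 over Mcm6, which separated by narrower margins. Mcm2 over Mcm3 was 1.064 in CML-TKI 4 against 1.069 in CML 1 and 2. Mcm4 over Mcm6 was 0.4153 in CML-TKI 1 against 0.4112 in CML 1. These margins were not tested against counting error. For Mcm2 over Mcm6 the mean log2 difference was -0.047 and the groups overlapped.

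Relative to its partners, Cdc6 separated the groups against some members and not against others. The ratio of Mcm6 to Cdc6 counts was 16.8, 17.8, 19.3 and 17.3 in the CML and 8.45, 6.16, 7.76 and 6.07 in the CML-TKI libraries. The groups lay far apart, and CML 5 was close to CML 1 to 3. Against Cdt1, its co-loader, Cdc6 stood at 0.235, 0.241, 0.213 and 0.131 in the CML and 0.378, 0.394, 0.284 and 0.526 in the CML-TKI libraries, without overlap. Against Mcm5, Gmnn and Mcm10 its groups overlapped, with mean log2 differences of -0.67 for Mcm5 over Cdc6, 0.24 for Cdc6 over Gmnn and 0.065 for Cdc6 over Mcm10, of which the differences against Gmnn and Mcm10 changed sign when 1 library was omitted (lowest -0.054 and -0.17). The ratio of Cdt1 to Gmnn was 9.33, 7.69, 9.95 and 10.1 in the CML and 5.35, 4.01, 6.0 and 7.66 in the CML-TKI libraries. CML-TKI 4 came up to CML 2, so that these groups met, and on the log2 CPM scale they overlapped.

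**Figure D2:**
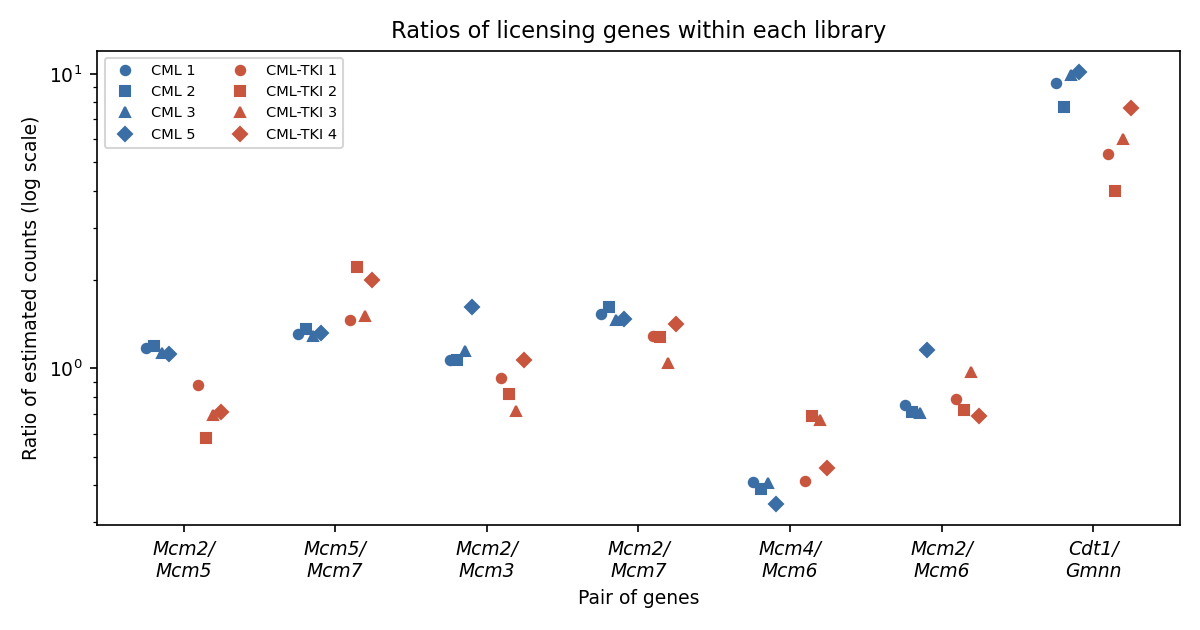
Ratio of the estimated counts of paired licensing genes on a log axis in each library, with CML in blue and CML-TKI in red. For Mcm2 over Mcm5 the CML libraries sit between 1.12 and 1.19 and the CML-TKI libraries between 0.581 and 0.878, whereas Mcm2 over Mcm6 overlaps.

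Within groups, the members moved together more in some libraries than in others. CML-TKI 2 was the highest of its group for 9 of the 10 members and CML-TKI 3 for the remaining member, Mcm10. CML-TKI 1 was the lowest for 6 members and CML-TKI 3 for 4. Among the CML libraries, CML 5 was the highest for 5 members and the lowest for the other 5, being low for Mcm3, Mcm4, Mcm6, Cdc6 and Mcm10. The median SD of a member's log2 CPM was 0.23 in the CML and 0.45 in the CML-TKI libraries, from 0.13 (Mcm3) to 0.33 (Mcm10) and from 0.19 (Mcm7) to 0.69 (Gmnn). Of 9304 other genes whose log2 CPM averaged 3 or more, the profiles nearest to the mean MCM2-7 profile over the 8 libraries, by root mean square difference after centring, were those of Hnrnpf (0.05 log2 units), Tob2 (0.069), Rbbp4 (0.084), Csnk1a1 (0.087) and Hcfc1 (0.09). The 6 subunits that make up this mean lay 0.16 (Mcm3) to 0.24 (Mcm4) from it. Against the 9304 other genes Mcm3 would rank 67 and Mcm4 419, so many other genes were nearer to it than its own subunits. Of the members outside the ring, Cdt1 lay as near as the subunits (0.18, rank 96), while Gmnn (0.49), Cdc6 (0.58) and Mcm10 (0.62) lay farther away.

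Only Mcm4 and Mcm7 had a protein-coding gene that starts within 1000 bases on the other strand, and noncoding genes were not searched. Prkdc, a DNA repair kinase gene whose start is 466 bases from that of Mcm4, had 156, 162, 149 and 55.7 CPM in the CML and 97.2, 139, 196 and 304 CPM in the CML-TKI libraries. CML 5 was low for both genes of this pair, and the groups overlapped (log2 fold change 0.49, edgeR quasi-likelihood adjusted p = 0.5004). The log2 fold change of Prkdc was 0.13 without CML-TKI 4, 0.23 without CML 5 and 0.70 without CML-TKI 1. Ap4m1, an adaptor complex subunit gene 420 bases from the start of Mcm7, had a log2 fold change of -0.59 (edgeR adjusted p = 0.580). It was -0.24 without CML-TKI 3 and -0.86 without CML-TKI 1.

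Around licensing, lists of 87 other replication and cell cycle genes, all tested, held 10 genes that rose and 1 that fell in the CML-TKI libraries by the edgeR quasi-likelihood test at a Benjamini-Hochberg adjusted p of 0.05 over all genes, beside 6.29% and 3.93% of all genes, with 66 log2 fold changes above 0 beside 5967 of 11937. With CML 1 to 3 summed to 1 library, an alternative added after the data were seen, 0 of the 87 were called in either direction. Their median log2 fold change was 0.40, beside 0.24 for the 10 members, 0.072 for MCM2-7 and -3e-04 for all genes tested. Of the 6 ORC genes, 0 were called (unadjusted, 1 higher and 0 lower, and 0 with DESeq2 or limma-voom), with a median of 0.50. Orc3, with the highest mean CPM of this list, had 97.05 ± 30.8 and 92.4 ± 19.4 CPM (SD, n = 4 each), and its log2 fold change of -0.069 changed sign without CML 2 (0.089) and without CML-TKI 4 (0.058).

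All 13 genes of helicase activation had a log2 fold change above 0, with a median of 0.81, and 1 of them passed the threshold in edgeR (6 higher unadjusted, 4 with DESeq2 and 5 with limma-voom, and 0 lower in each). This was Dbf4, the regulatory subunit of the kinase CDC7, with 28.7, 31.8, 26.3 and 24.9 CPM in the CML and 70.7, 54.5, 47.1 and 72.1 CPM in the CML-TKI libraries. It was separate between groups (log2 fold change 1.13, SE 0.24, edgeR adjusted p = 0.0163), while the kinase gene Cdc7 itself, with a log2 fold change of 0.0054, was not (edgeR adjusted p = 0.994). The call of Dbf4 was lost without CML 1, 2 or 3 (edgeR adjusted p = 0.0659, 0.0537 and 0.0692). Cdc45, which joins MCM2-7 in the active helicase, had a log2 fold change of 1.05 and was separate between groups without passing the threshold (edgeR adjusted p = 0.0784). Cdc7 and Cdc45 were named after their values were seen. Among MCM relatives and unloading factors 0 of 4 passed (unadjusted, 1 higher and 0 lower, and 1 higher with DESeq2 and with limma-voom), and Mcmbp, an MCM-binding protein and the one with the highest mean CPM, had a log2 fold change of 0.76 (edgeR adjusted p = 0.1095).

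Of the 6 genes for the degradation of CDT1, 1 rose and 0 fell (unadjusted, 2 and 0; DESeq2 and limma-voom, 1 and 0). Skp2, the F-box protein of an SCF ubiquitin ligase that takes up CDT1 and the inhibitor p27, had 24.4, 27.2, 26.7 and 20.8 CPM in the CML and 87.4, 55.8, 104 and 52.8 CPM in the CML-TKI libraries. Its groups lay far apart (log2 fold change 1.59, SE 0.28, edgeR adjusted p = 0.00799, or 0.146 with CML 1 to 3 summed). None of the CUL4 ligase genes, chosen after their values were seen, was called. Ddb1 and Cul4a had log2 fold changes of 0.013 and 0.0054 and Cul4b 0.78 (edgeR adjusted p = 0.113), and the difference between them was not tested.

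Downstream, the replisome list held 0 genes that rose and 1 that fell among 25 (unadjusted, 1 and 1; DESeq2 and limma-voom, 0 and 1), and its median was 0.14. The gene that fell was Chaf1b, a subunit of the chromatin assembly factor that places histones behind the fork, from 72.1 ± 3.99 to 31.4 ± 13.6 CPM (SD, n = 4 each, log2 fold change -1.18, edgeR adjusted p = 0.0355). Its call was lost without CML 1, 2, 3 or 5 and without CML-TKI 3 or 4, with edgeR adjusted p between 0.0503 and 0.102. Of the deoxynucleotide genes, 1 of 6 rose in edgeR (1 unadjusted and with DESeq2, 2 with limma-voom), Rrm2, the cell cycle-regulated subunit of ribonucleotide reductase, with 51.1, 50.2, 48.7 and 55.8 CPM in the CML and 103, 324, 269.6 and 208 CPM in the CML-TKI libraries (log2 fold change 2.13, SE 0.33, edgeR adjusted p = 0.00380, or 0.112 with CML 1 to 3 summed). Its partner Rrm1 was picked once its values were known, with a log2 fold change of 0.41 (edgeR adjusted p = 0.272).

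Among 16 E2F, RB and S-phase cyclin genes, 3 rose and 0 fell (unadjusted, 6 and 2; DESeq2, 5 and 1; limma-voom, 6 and 2). E2f2, an activating E2F, had 22.6, 19.3, 21.6 and 28.3 CPM in the CML and 81.3, 189, 326 and 100.2 CPM in the CML-TKI libraries (log2 fold change 2.91, SE 0.43, edgeR adjusted p = 0.00334, or 0.0978 with CML 1 to 3 summed). Ccne1, the cyclin E1 that drives entry to S phase, went from 8.29 ± 0.98 to 32.5 ± 10.7 CPM (SD, n = 4 each, log2 fold change 1.97, edgeR adjusted p = 0.00627, or 0.174 with CML 1 to 3 summed). E2f8, a repressing E2F, also rose (log2 fold change 1.31, edgeR adjusted p = 0.0483), although CML-TKI 1 lay within the CML range, and lost the call without any single library other than CML-TKI 1 (0.074 to 0.126). E2f1, with a log2 fold change of -0.37, was not called (edgeR adjusted p = 0.479) and was named after its values were seen.

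In the G2 and M phase list 4 of 11 rose and 0 fell (unadjusted, 5 and 0; DESeq2, 5 and 0; limma-voom, 5 and 0), and all 11 log2 fold changes were above 0, with a median of 0.95. The spindle genes Bub1, Aurka and Plk1 had log2 fold changes of 1.24, 1.17 and 1.15 (edgeR adjusted p = 0.0175, 0.0123 and 0.0133). Without CML 1 all 3 lost the call (0.0651, 0.0585 and 0.0613), and without CML 2 or 3 so did Aurka (0.053 and 0.057) and Plk1 (0.0573 and 0.057). Mki67, a proliferation marker with a long transcript, named after its values were seen, had 630.3, 723, 666 and 52.7 CPM in CML 1, 2, 3 and 5 and 809, 1042, 1401 and 1419 CPM in CML-TKI 1 to 4. CML 5 was more than 10 times lower than the other CML libraries for it, and it did not pass the threshold (log2 fold change 1.17, edgeR adjusted p = 0.262).

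**Figure D3:**
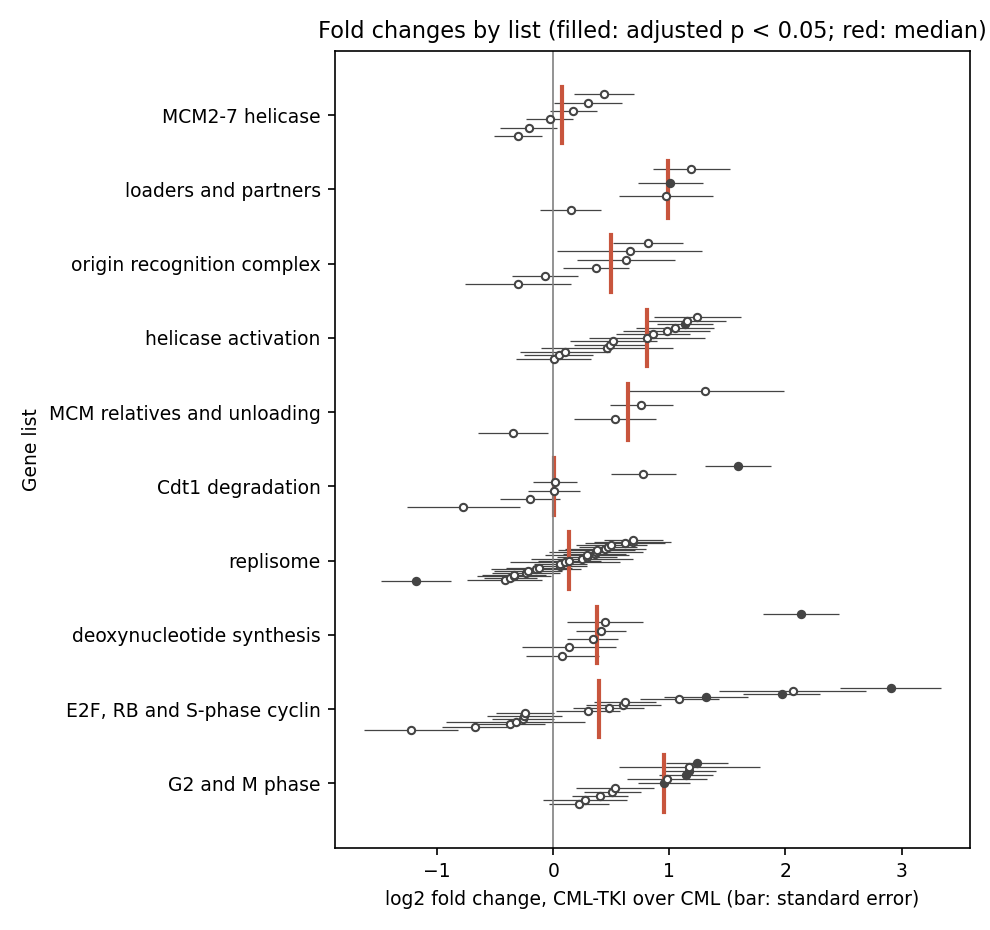
Log2 fold change of CML-TKI over CML for each gene of the licensing, replication and cell cycle lists, with bars for the standard error, filled points for an adjusted p under 0.05 and a red line at the list median. The MCM2-7 genes lie around 0 with a median of 0.072, while the medians of helicase activation (0.81) and of G2 and M phase (0.95) lie to the right.

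Markers of other cell types moved with the groups. Of the 11 granulocyte genes (10 tested) 9 rose and 0 fell in edgeR, with a summed level of 179 to 291 CPM in the CML and 1463 to 8405 CPM in the CML-TKI libraries, led by Mpo and Elane. All 7 monocyte and macrophage genes rose in edgeR, with a summed level of 231 to 305 CPM in CML and 1396 to 7175 CPM in CML-TKI libraries. Lyz2 and F13a1 were the most abundant of them, and Lyz2 had the smallest log2 fold change of the list (2.92). Of the 10 HSC genes (9 tested) 0 rose and 3 fell in edgeR, Hlf and Meis1 among them (7 lower unadjusted, 4 with DESeq2 and 8 with limma-voom), from 1114 to 1459 CPM down to 48.0 to 427 CPM, and 5 of them had no count in at least 1 CML-TKI library. The 7 megakaryocyte genes (2 lower in edgeR, among them Itga2b, and 4 lower unadjusted, with DESeq2 and with limma-voom) went from 1375 to 1677 CPM down to 60.7 to 833 CPM. Vwf among them was at 741 to 798 CPM in the CML and 5.58 to 236 CPM in the CML-TKI libraries (log2 fold change -2.93, edgeR adjusted p = 0.0562). Neither erythroid (0 of 6 tested called in edgeR, unadjusted 2 higher and 1 lower, 0 in DESeq2 and 1 lower in limma-voom) nor lymphoid genes passed in edgeR. Of the 7 lymphoid genes only 1, Cd79b, had the counts to be tested in edgeR and limma-voom, where it was not called (also not unadjusted), DESeq2 without that filter called 2 higher, and 3 were at 0 in all CML libraries. CML-TKI 3 stood out in both, with 31620 CPM summed over the erythroid genes, nearly all Hba-a1 and Hbb-bs, against 55.2 to 500.5 in the other CML-TKI libraries, and 183 CPM over the lymphoid genes, which included Pax5 and Cd79b, against 19.4 to 29.1. CML-TKI 1 had the lowest granulocyte and monocyte sums and the highest HSC sum of its group, and also the lowest MCM2-7 sum. The part of these markers in the levels of Cdc6, Mcm10, Gmnn and the replication genes was not tested.

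**Figure D4:**
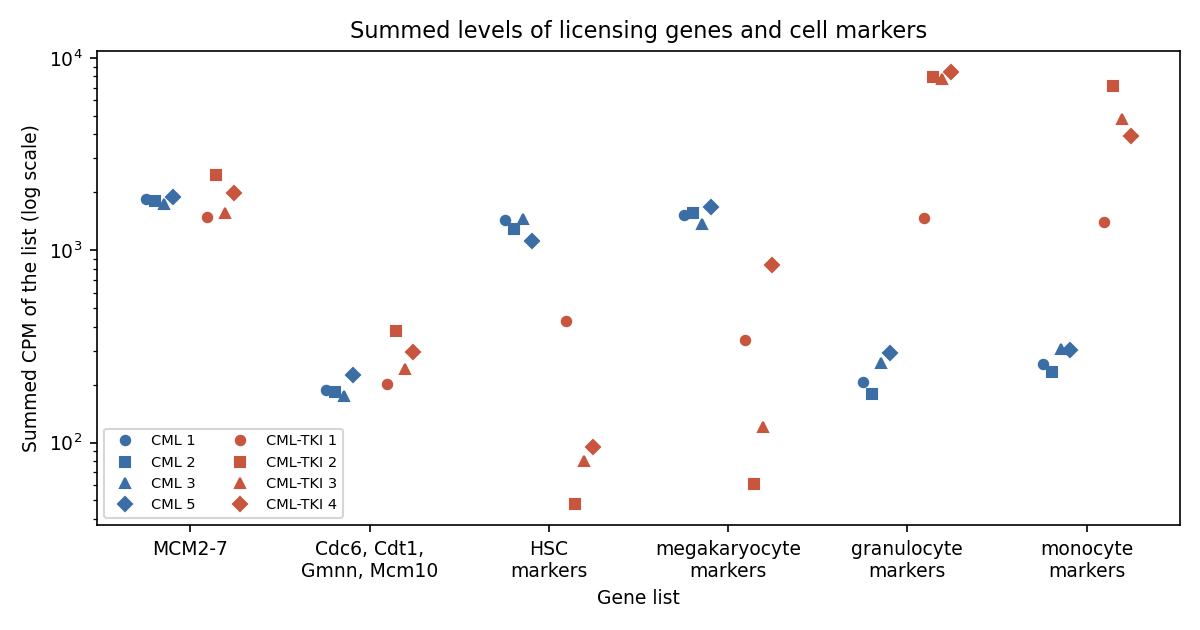
Summed TMM-normalized CPM on a log axis of the licensing genes and of cell marker lists in each library, with CML in blue and CML-TKI in red. The MCM2-7 sum stays between 1479 and 2464 CPM in all libraries, while the HSC and megakaryocyte sums are lower and the granulocyte and monocyte sums higher in every CML-TKI library.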

How the data were processed

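Cells sorted as LSCs were profiled by bulk RNA-seq in 4 CML and 4 CML-TKI libraries. The authors extracted RNA with an RNeasy Plus mini kit and built Nextera XT libraries. By the study's methods, paired reads were mapped with STAR 2.6.1d on mm10, and Partek software assigned them to RefSeq transcripts. The deposited values are estimated counts per gene that the authors left unnormalized. Whether counting used strand is not given in the sources used here.

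Columns were matched to titles by group and number, and CML 5, a number no title has, was used by its group. Values were rounded to integers before testing. edgeR 4.0.16 in R 4.3.3 (TMM, filterByExpr with a minimum count of 10 and a minimum total of 15, robust quasi-likelihood test) was fitted to 11937 genes with Benjamini-Hochberg adjustment at 0.05. Standard errors are the log2 fold change over the square root of F. A prior count of 2 was added for log2 CPM. DESeq2 1.42.0 and limma-voom (limma 3.58.1) were alternatives. Lengths and positions came from GENCODE (GRCm38), promoter sequences from RefSeq (GRCm38.p6).

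Members and lists were chosen with earlier results of these data known. Genes named are the members, up to 3 genes past the threshold in each direction of each replication list (otherwise its most abundant gene), the 5 genes nearest in profile, neighbours within 1000 bases, Slamf1, Cd48 and the 2 most abundant genes of each marker list, and others are said to be named after their values were seen. For 3 counts the level is 0.409 to 0.58 CPM (CML) or 0.57 to 3.29 CPM (CML-TKI), and intervals cover counting error only. A lymphoid marker of the original list is not reported here.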

Additional observations from a re-analysis of the deposited data

Results flagged for a closer look

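Dixon's criterion for 1 value apart from the remaining 3, which chance meets in about 1 of 20 groups, was met in 18 of 88 groups of values, where about 4.4 arise by chance, and 8 of the 18 were CML 5. For members, CML 5 was low for Mcm4 (130.9 CPM) and Mcm10 (19.8 CPM) and high for Mcm5 (389.2 CPM) and Cdt1 (167 CPM), and CML-TKI 2 was high for Gmnn (49.6 CPM, the others reaching 18.99 CPM). CML 5 also stood apart for Ccne1 (9.76 CPM), Plk1 (51.0 CPM), Prkdc (55.7 CPM) and Vwf (740.9 CPM), and CML-TKI 2 for Ccne1 (48.3 CPM). CML-TKI 1 had the lowest Elane (220.5 CPM) and the highest Hlf (82.1 CPM) and Meis1 (86.0 CPM) of its group. CML-TKI 3 was high for Hba-a1 (19620 CPM), Hbb-bs (11920 CPM), Cd79b (34.0 CPM) and Pax5 (51.5 CPM), and CML 3 for Cd79b (20.3 CPM).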

How the results depend on the processing

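Of the 751 genes higher and 469 lower in the CML-TKI libraries, DESeq2 gave 1334 and 1086, limma-voom with quality weights 1249 and 1314, and leaving out 1 library in turn 364 to 1171 and 141 to 1333, the lowest without CML 1 and the highest without CML-TKI 1. With CML 1 to 3 summed to 1 library, an alternative added after the data were seen, the counts were 102 and 20. Of the members, 1 was called higher, against 2 with DESeq2, 3 with limma-voom, 0 with total counts without Rn45s, 0 with no filter on low counts, 0 after thinning to the smallest total, 0 with CML 1 to 3 summed, and 0 to 2 with 1 library left out. In the other replication lists, 10 genes were higher and 1 lower, against 17 and 2 with DESeq2, 20 and 3 with limma-voom, 0 and 0 with CML 1 to 3 summed, and 4 to 17 and 0 to 1 with 1 library left out. Total counts without Rn45s shifted the all-gene median (log2) to -0.124, limma-voom to -0.114 and the block to -0.137.

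Some small log2 fold changes turned sign. Mcm4 ranged from -0.014 to 0.464 with 1 library left out, Mcm7 from -0.126 to 0.084 (0.085 with limma-voom), Cdt1 from -0.077 to 0.308 (-0.023 with CML 1 to 3 summed) and Orc3 from -0.272 to 0.089 (0.134 with CML 1 to 3 summed). The cause was not tested. Cdc6, Gmnn, Mcm10, Mcm2, Mcm3, Mcm5 and Mcm6 kept their sign in all 16 alternatives. Depth limits Gmnn and Cdc6 in CML-TKI 3.

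Libraries with equal numbers did not deviate together (correlations of -0.042, 0.097 and 0.093 for numbers 1, 2 and 3), and 1 of 3 CML and 2 of 3 CML-TKI libraries correlated best with their own number. With the replicate block over the 3 numbered pairs, 170 genes were higher and 53 lower, 0 members were higher, the replication lists held 1 higher (E2f2) and 0 lower, Mcm7 stood at 0.095 and Prkdc at -0.175.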
